A study of Homo sapiens with 8 samples.

Results

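The genes described here are BMP4, the other BMP ligand BMP2, the receptors BMPR1A and BMPR2, the signal carrier SMAD1, the inhibitor SMAD6, and the 4 ID genes ID1, ID2, ID3 and ID4. They are 10 of the 19411 genes in the deposited table, and all 10 were found in it by gene name. They were chosen by measured values, because ID2 was higher and BMP4 lower in the parental line with the NORAD guide, and because both stood nearer the control guide in circPRE8. The values of the parental guide comparison and of circPRE8 against either parental group are therefore descriptions, without a test, for these 10 genes. Tests are given for circPRE2 against either parental group and for circPRE8 against circPRE2, which share libraries with the comparisons used for the choice. For BMP4 and ID2 a test is given only for circPRE2 against the parental line with the same guide.

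The series measured poly(A) RNA in HCT116, a human colorectal carcinoma cell line, by RNA sequencing. All 8 libraries came from HCT116 cells carrying CRISPR interference, in which a guide RNA leads a catalytically inactive Cas9 repressor to a promoter. The 4 groups of 2 libraries were the parental line with the control guide sgControl, the parental line with sgNORAD, and the lines labelled circPRE2 and circPRE8, each with sgNORAD. NORAD is a long non-coding RNA that carries many binding sites for PUMILIO proteins, which lower the level of messages holding their motif, and the series title concerns NORAD, phase separation of PUMILIO and genome maintenance. No circPRE2 or circPRE8 library with sgControl was analysed here, so a difference between these lines and the parental line cannot be told apart from a difference between lines. The labels do not say what circPRE2 and circPRE8 express, whether a line is a clone, or whether the 2 libraries of a group came from separate cultures, and the tests therefore weigh differences against a spread between libraries that may be purely technical. NORAD itself was not analysed here.

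BMP ligands bind paired type I and type II receptors such as BMPR1A and BMPR2. The activated receptors phosphorylate SMAD1, SMAD5 and SMAD9 (SMAD8), which enter the nucleus with SMAD4 and switch on genes that include ID1, ID2, ID3 and the inhibitors SMAD6 and SMAD7. ID proteins have a helix-loop-helix without a DNA-binding region and hold basic helix-loop-helix factors in inactive pairs. BMP signalling in the gut lining restrains stem cells and favours differentiation, and ID1 and ID3 are known as genes that respond to it quickly.

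Library sizes inferred from the step between low values were 28.4 M reads in parental sgNORAD replicate 1 and 42.6 to 50.3 M in the other 7 libraries. The root mean square difference between the replicates of a group ran from 0.110 to 0.149 on the log2 scale over the genes tested. Of 8 markers of colorectal epithelial cells, EPCAM, KRT8, KRT18, KRT19, CDH1 and CDX2 were present, while VIL1 and LGALS4 lay below 0.1 RPKM in every library. The summed RPKM of these 8 markers was 967 to 1081 in the parental and circPRE2 libraries and 1226 to 1252 in circPRE8. The keratins KRT8, KRT18 and KRT19 carried that sum and rose in circPRE8 against parental sgNORAD, while EPCAM and CDH1 fell (limma with Benjamini-Hochberg adjustment over all genes) and CDX2 did not pass. EPCAM was at 91.3 to 115 RPKM in the other 6 libraries and at 73.2 and 73.8 in circPRE8, and CDH1 at 9.79 to 12 in the other 6 and at 5.78 and 6.18 in circPRE8. Of 8 fibroblast markers, DCN, PDGFRB and THY1 were below 0.1 RPKM throughout, and the sum of the 8 was 4.13 to 4.29 RPKM with the control guide, 4.87 to 4.98 in parental sgNORAD, 6.10 to 6.54 in circPRE2 and 8.84 to 13.3 in circPRE8. Without SPARC the fibroblast sum in circPRE8 was 3.92 and 6.22 RPKM, against 3.28 to 4.92 in the other groups. Blood markers summed to 0.731 to 1.26 RPKM and endothelial markers to 0.106 to 0.198 over the 8 libraries. Of 4 markers of embryonic kidney or neural lines, SALL1, NEFL and NEFM were below 0.1 RPKM throughout. PAX2 was at 1.46 to 1.59 RPKM in the parental groups, 2.36 and 2.37 in circPRE2, and 2.84 and 2.69 in circPRE8. It was called higher by limma in both circPRE lines than in either parental group. These marker levels move with the groups compared, and their part in the results was not tested. In bulk libraries fewer cells expressing a gene and less RNA per cell cannot be told apart.

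The promoters of the genes on which the results turn are shown as the 300 bases from 250 before to 50 after the RefSeq start on GRCh38.p14, which was matched for 9 of the 10 genes. BMP4 and the 3 well expressed ID genes are printed, since ID2 was higher and ID1, ID3 and BMP4 lower in parental sgNORAD than with the control guide. ID2 lies at chr2:8681806-8682105 and ID1 at chr20:31605039-31605338 on the plus strand, and ID3 at chr1:23559452-23559751 and BMP4 at chr14:53955001-53955300 on the minus strand. Capitals mark GGCGCC, a motif of SMAD1 and SMAD5, GTCTG or its reverse complement CAGAC, the SMAD box, and CCAAT or ATTGG, the motif of the factor NF-Y. CCAAT was added to the search after the sequences had been read.
ID2: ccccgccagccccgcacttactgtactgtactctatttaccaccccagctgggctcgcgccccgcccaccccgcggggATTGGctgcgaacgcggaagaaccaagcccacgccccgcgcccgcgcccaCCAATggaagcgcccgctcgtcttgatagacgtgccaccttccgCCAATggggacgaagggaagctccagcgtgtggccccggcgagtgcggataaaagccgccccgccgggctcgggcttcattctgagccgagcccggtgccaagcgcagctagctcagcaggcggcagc
ID1: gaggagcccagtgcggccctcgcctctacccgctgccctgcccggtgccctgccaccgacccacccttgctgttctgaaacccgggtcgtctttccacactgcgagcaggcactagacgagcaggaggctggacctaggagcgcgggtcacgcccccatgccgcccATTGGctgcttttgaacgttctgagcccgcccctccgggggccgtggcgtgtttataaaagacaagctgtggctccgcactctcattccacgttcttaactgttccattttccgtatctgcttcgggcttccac
ID3: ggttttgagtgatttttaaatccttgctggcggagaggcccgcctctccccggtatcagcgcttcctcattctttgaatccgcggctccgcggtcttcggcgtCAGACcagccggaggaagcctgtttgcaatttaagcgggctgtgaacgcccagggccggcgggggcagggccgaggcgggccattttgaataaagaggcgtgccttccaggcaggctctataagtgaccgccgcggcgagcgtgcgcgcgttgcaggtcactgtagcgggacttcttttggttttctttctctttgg
BMP4: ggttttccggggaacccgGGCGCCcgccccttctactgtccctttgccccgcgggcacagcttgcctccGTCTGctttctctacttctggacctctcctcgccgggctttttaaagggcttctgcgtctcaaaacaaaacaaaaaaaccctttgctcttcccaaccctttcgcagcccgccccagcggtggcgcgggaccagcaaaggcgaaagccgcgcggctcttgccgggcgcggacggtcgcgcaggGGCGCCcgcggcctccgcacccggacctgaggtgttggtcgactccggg
CCAAT was found 3 times in the ID2 window, 1 time in that of ID1, and in neither of the windows of ID3 and BMP4. Among the windows not printed, that of SMAD1 also held 3, those of SMAD6 and ID4 1 each, and those of BMPR1A and BMPR2 none. At least 1 match occurs in 34.6% of 35116 RefSeq promoter windows of this length. GGCGCC was found 2 times for BMP4 and not in the 3 ID windows shown, against 19.2% of all windows. GTCTG was found 1 time each for BMP4 and ID3, against 45.3% of all windows. Among the windows not printed, that of BMPR2 held 1 GGCGCC and 4 GTCTG, and that of ID4 held 1 GTCTG. Those of BMPR1A, SMAD6 and SMAD1 held neither motif. Both strands were searched. Of the E-boxes also searched, CACGTG (7.26% of windows) was found in none of the 4 windows printed. CAGCTG (17.9% of windows) was found 1 time among them, in ID2, where it is left in lower case. These are matches of letters in a window, not measured sites.

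BMP4 (ENSG00000125378.16, chr14:53949736-53958761 on the minus strand, hg38) encodes a secreted BMP ligand and was the more abundant of the 2 ligands among these genes. Its RPKM, reads per gene divided by gene length and library size, was 68.7 and 69.5 with the control guide, 42.6 and 40.8 in parental sgNORAD, 35.6 and 33.8 in circPRE2, and 71.5 and 74.0 in circPRE8. The sgNORAD libraries of the parental and circPRE2 lines lay below all others, and circPRE8 lay slightly above the control guide. BMP4 in parental sgNORAD was 0.604-fold the control level, and in circPRE8 it was 1.74-fold the level in parental sgNORAD and 1.05-fold that of the control guide, as descriptions of the values that chose it. In circPRE2 BMP4 fell further, to 0.833-fold the level of parental sgNORAD (log2 fold change -0.26, SE 0.039; limma with Benjamini-Hochberg adjustment, adjusted p = 0.00122), and the 2 groups did not overlap.

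BMP2 (ENSG00000125845.7, chr20:6767664-6780280 on the plus strand) encodes the ligand most like BMP4 and was nearly silent. Its RPKM was 0.00663 and 0 with the control guide, 0.00994 and 0 in parental sgNORAD, 0.293 and 0.140 in circPRE2, and 0.284 and 0.0172 in circPRE8. In reads inferred from the RPKM steps, BMP2 had 1 and 0 with the control guide, 1 and 0 in parental sgNORAD, 48 and 25 in circPRE2, and 45 and 3 in circPRE8. Both circPRE2 libraries were thus above every parental library, while 1 circPRE8 library was near the parental level. Summed over the 2 libraries, circPRE2 had 73 reads against 1 in parental sgNORAD, a ratio of 56.0 after scaling to library size (95% interval 9.75 to 2243, for counting error only). BMP2 stayed below 0.5 RPKM in every library, while the filter asked for 0.5 RPKM in at least 2 libraries, and it entered no test.

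**Figure D1:**
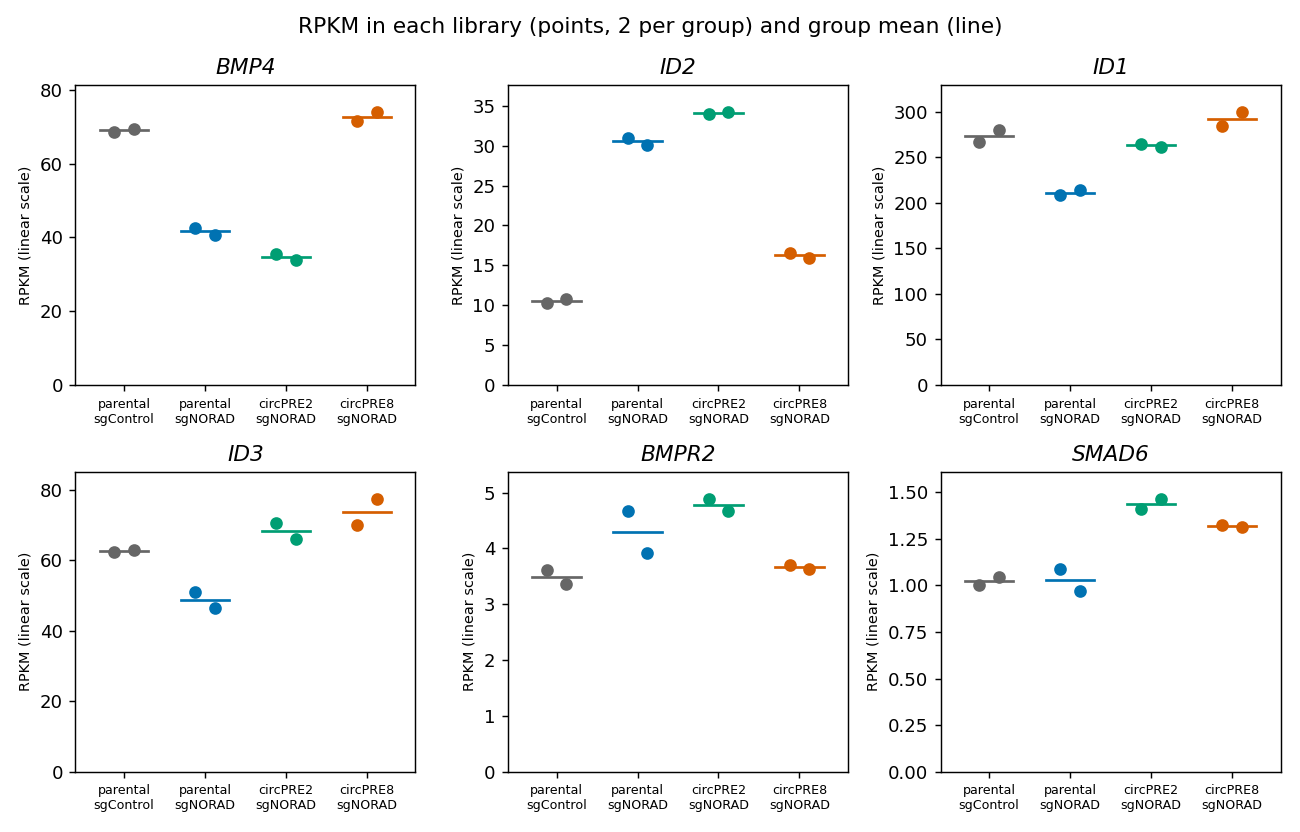
RPKM of BMP4, ID2, ID1, ID3, BMPR2 and SMAD6 in each library (points, 2 per group) with the group mean (line), on linear axes that start at 0. ID2 is at 10.3 and 10.8 RPKM with the control guide and at 30.1 to 34.2 in the parental and circPRE2 lines with sgNORAD, while BMP4 runs the other way and ID1 and ID3 are lowest in parental sgNORAD.

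The type I receptor BMPR1A (ENSG00000107779.13, chr10:86756601-86932838 on the plus strand) varied little, from 5.01 to 5.53 RPKM over the 8 libraries. In circPRE2 it was 1.06-fold parental sgNORAD (95% interval 0.976 to 1.14, adjusted p = 0.317 by limma with Benjamini-Hochberg adjustment) and in circPRE8 1.02-fold circPRE2 (95% interval 0.942 to 1.1, adjusted p = 0.688), and neither difference passed the threshold of 0.05.

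The type II receptor BMPR2 (ENSG00000204217.13, chr2:202376936-202567751 on the plus strand) had 3.61 and 3.36 RPKM with the control guide, 4.66 and 3.92 in parental sgNORAD, 4.89 and 4.67 in circPRE2, and 3.71 and 3.62 in circPRE8. The parental and circPRE2 lines with sgNORAD were the higher groups, and circPRE8 was near the control guide. BMPR2 was 1.22-fold higher in parental sgNORAD than with the control guide, and in circPRE8 0.861-fold the level of parental sgNORAD, as descriptions. BMPR2 in circPRE2 rose 1.36-fold over the control guide (95% interval 1.21 to 1.53, limma adjusted p = 0.000942) and fell in circPRE8 to 0.772-fold the circPRE2 level (95% interval 0.685 to 0.870, limma adjusted p = 0.00271). Against parental sgNORAD the 1.11-fold difference in circPRE2 did not pass (limma adjusted p = 0.186), and it passed when parental sgNORAD replicate 1 was left out (adjusted p = 0.0304).

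SMAD1 (ENSG00000170365.10, chr4:145481194-145558079 on the plus strand), the carrier that BMP receptors phosphorylate, had 3.22 and 3.18 RPKM with the control guide, 3.85 and 3.68 in parental sgNORAD, 3.57 and 3.68 in circPRE2, and 4.09 and 3.68 in circPRE8. All 6 libraries with sgNORAD lay above both control libraries. SMAD1 was 1.17-fold the control level in parental sgNORAD and 1.21-fold in circPRE8, as descriptions, and circPRE2 was 1.13-fold the control guide (95% interval 1.02 to 1.25, limma adjusted p = 0.0486), a call lost under 8 of 17 alternatives. Its 376 exon bases shared with the antisense gene SMAD1-AS1 could not be separated, since the strand used in counting is not given in the sources used here and the antisense gene was not in the table.

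SMAD6 (ENSG00000137834.15, chr15:66702228-66782848 on the plus strand) encodes an inhibitory SMAD and is itself a BMP response gene. Its RPKM was 1.00 and 1.04 with the control guide, 1.09 and 0.969 in parental sgNORAD, 1.41 and 1.46 in circPRE2, and 1.33 and 1.31 in circPRE8. Both circPRE lines lay above both parental groups, which overlapped each other. In circPRE2 SMAD6 rose 1.36-fold over parental sgNORAD (log2 fold change 0.45, SE 0.096, limma adjusted p = 0.00859) and 1.37-fold over the control guide (limma adjusted p = 0.00285). The first of these calls was lost without circPRE2 replicate 1 (adjusted p = 0.0526) or replicate 2 (adjusted p = 0.0597). SMAD6 in circPRE8 was 1.26-fold the level of either parental group, as a description, and its ratio to circPRE2 of 0.924 did not pass (95% interval 0.799 to 1.07, limma adjusted p = 0.352).

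The ID genes split into 2 patterns. ID2 (ENSG00000115738.10, chr2:8678845-8684453 on the plus strand) had 10.3 and 10.8 RPKM with the control guide, 31.0 and 30.1 in parental sgNORAD, 34.0 and 34.2 in circPRE2, and 16.6 and 16.0 in circPRE8. The groups did not overlap, and circPRE8 lay between the control guide and parental sgNORAD. ID2 in parental sgNORAD was 2.88-fold the control level, in circPRE8 0.535-fold the level of parental sgNORAD and 1.54-fold the control guide, as descriptions of the values that chose it. In circPRE2 ID2 rose 1.12-fold over parental sgNORAD (log2 fold change 0.16, SE 0.040, limma adjusted p = 0.0184). This call was lost under 4 of 17 alternatives: without circPRE2 replicate 1 (adjusted p = 0.105), without circPRE2 replicate 2 (adjusted p = 0.0942), without parental sgNORAD replicate 2 (adjusted p = 0.0630), and without the trend of variance on expression (adjusted p = 0.0609). The antisense gene ID2-AS1 overlaps 38 exon bases of ID2, and their reads could not be told apart without strand.

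ID1 (ENSG00000125968.9, chr20:31605283-31606515 on the plus strand) was the most abundant of the 10 genes, at 267 and 280 RPKM with the control guide, 208 and 214 in parental sgNORAD, 265 and 262 in circPRE2, and 284 and 299 in circPRE8. Parental sgNORAD was the lowest group and did not overlap any other. Its level there was 0.771-fold the control and in circPRE8 1.38-fold parental sgNORAD, as descriptions. ID1 rose 1.25-fold in circPRE2 over parental sgNORAD (log2 fold change 0.32, SE 0.040, limma adjusted p = 0.000442). The 0.962-fold difference between circPRE2 and the control guide did not pass (95% interval 0.905 to 1.02, limma adjusted p = 0.289). ID1 was 1.11-fold higher in circPRE8 than in circPRE2 (limma adjusted p = 0.0117), a call lost without circPRE2 replicate 2 (adjusted p = 0.0627) or circPRE8 replicate 2 (adjusted p = 0.126).

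ID3 (ENSG00000117318.9, chr1:23557918-23559794 on the minus strand) followed ID1, with 62.5 and 62.9 RPKM with the control guide, 51.0 and 46.4 in parental sgNORAD, 70.7 and 66.1 in circPRE2, and 70.1 and 77.5 in circPRE8. Parental sgNORAD was again lowest, and circPRE2 and circPRE8 overlapped each other. ID3 in parental sgNORAD was 0.777-fold the control, and in circPRE8 1.51-fold parental sgNORAD, as descriptions. ID3 rose 1.40-fold in circPRE2 over parental sgNORAD (log2 fold change 0.49, SE 0.056, limma adjusted p = 0.000241). The difference between circPRE8 and circPRE2, 1.08-fold, did not pass in the main analysis (95% interval 0.990 to 1.17, limma adjusted p = 0.139), and passed with TMM factors (adjusted p = 0.0392), with RLE factors (adjusted p = 0.0402) and without circPRE8 replicate 1 (adjusted p = 0.0489). The 1.09-fold difference between circPRE2 and the control guide did not pass either (limma adjusted p = 0.0909), and passed when only those 2 groups were fitted (adjusted p = 0.0261). ID4 (ENSG00000172201.12, chr6:19837386-19840684 on the plus strand) was nearly silent, at 0.115 and 0.0978 RPKM with the control guide, 0.0364 and 0.0226 in parental sgNORAD, 0.0558 and 0.0668 in circPRE2, and 0.104 and 0.115 in circPRE8. Those values rest on 4 to 22 inferred reads a library, and ID4 entered no test.

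The balance within the ID family shifted with these levels. The summed level of the 4 ID genes was 340 and 354 RPKM with the control guide, 290 and 290 in parental sgNORAD, 370 and 362 in circPRE2, and 371 and 393 in circPRE8. ID2 made up 3.03% and 3.05% of that sum with the control guide, 10.7% and 10.4% in parental sgNORAD, 9.19% and 9.44% in circPRE2, and 4.48% and 4.07% in circPRE8. ID1 remained the largest term in every library, at 71.7% to 79.2% of the sum. The ratio of ID2 to BMP4 was 0.150 and 0.155 with the control guide, 0.727 and 0.738 in parental sgNORAD, 0.954 and 1.01 in circPRE2, and 0.232 and 0.216 in circPRE8.

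**Figure D2:**
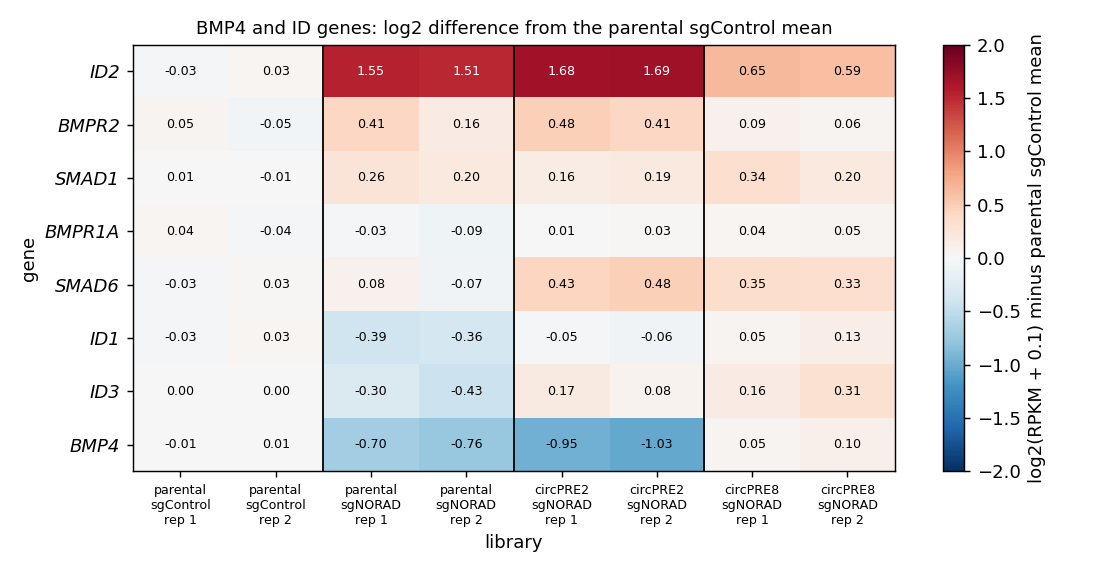
Log2(RPKM + 0.1) of the 8 genes that passed the filter, as the difference from the mean of the 2 parental sgControl libraries, in each of the 8 libraries (columns). ID2 and BMP4 carry opposite signs in the parental and circPRE2 lines with sgNORAD, and ID1 and ID3 are negative in both parental sgNORAD libraries.

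In circPRE2 against parental sgNORAD, 4 of the 8 genes tested rose (ID1, ID2, ID3 and SMAD6) and 1 fell (BMP4), while 3 did not pass. BMP4 and ID2 were chosen partly by their parental sgNORAD values, which are 1 side of this comparison. The calls among the other genes were ID1, ID3 and SMAD6, all higher. Over all 11585 genes tested 10.9% rose and 7.91% fell in that comparison. The median log2 fold change was 0.16 over the 8, BMP4 and ID2 included, and 0.01 over all genes. The count of 4 fell to 2 without circPRE2 replicate 1 or without replicate 2, where SMAD6 and ID2 were lost. Of the 6 other genes whose call is given for circPRE8 against circPRE2, 1 rose (ID1) and 1 fell (BMPR2), against 18% of all genes higher and 25.7% lower, so these shares are near the background. BMP4 and ID2 were 2.09-fold and 0.479-fold in circPRE8 relative to circPRE2, as descriptions. In circPRE2 against the control guide BMPR2, SMAD6 and SMAD1 rose and BMPR1A, ID1 and ID3 did not pass, against 25.2% of all genes higher and 17.8% lower, and BMP4 and ID2 were 0.503-fold and 3.21-fold.

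**Figure D3:**
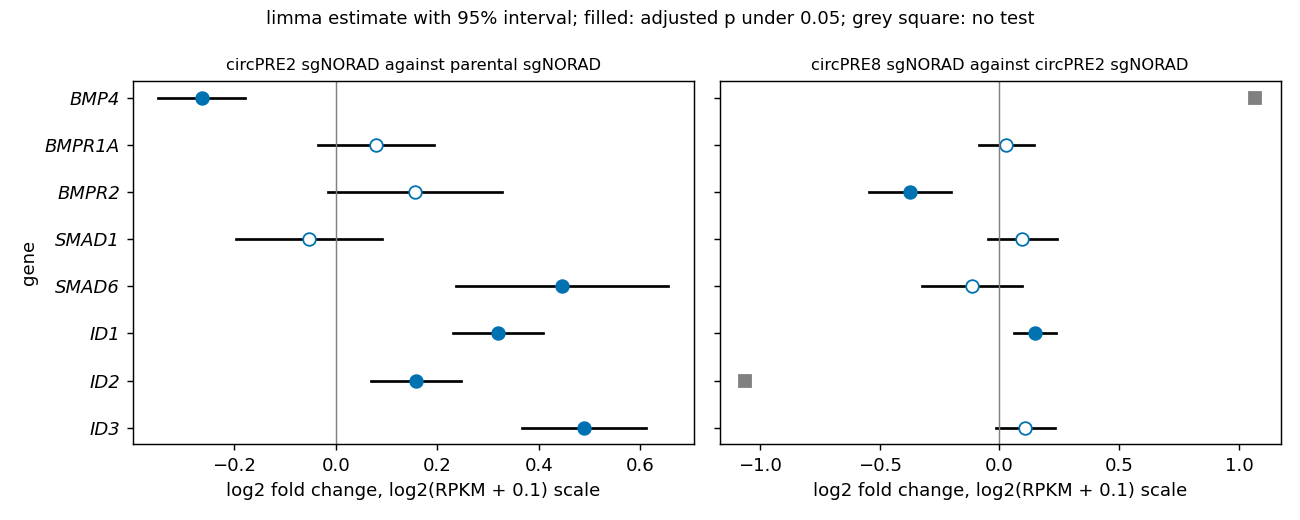
Estimated log2 fold change with its 95% interval for the 8 genes tested, in circPRE2 against parental sgNORAD (left) and circPRE8 against circPRE2 (right), on separate x axes. Filled points passed an adjusted p of 0.05, open points did not, and grey squares are BMP4 and ID2 without a test.

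Other genes of the BMP pathway, 74 in all on lists of ligands, receptors, carriers, inhibitors, antagonists, response genes and ID partners, were tested in 39 cases. For 5 of the 39 (BMP5, ACVRL1, ENG, SMAD9 and RUNX2) at least 1 group lay wholly below the filter of 0.5 RPKM, so that they entered through the groups where they were higher. Their calls stay in the counts that follow, which therefore rest in part on genes that entered by being higher in some groups. Counts without these genes were not made. The levels of those described below are given as descriptions, and no p is given for them. In parental sgNORAD against the control guide 4 rose and 11 fell, against 20.9% and 16.4% of all genes. Against parental sgNORAD, 12 rose and 1 fell in circPRE2, against 10.9% and 7.91%, and 16 rose and 9 fell in circPRE8, against 23.6% and 28.6% of all genes. In circPRE8 against circPRE2 10 rose and 12 fell, against 18% and 25.7%. Against the control guide 16 rose and 4 fell in circPRE2, against 25.2% and 17.8%, and 11 rose and 8 fell in circPRE8, against 20% and 20.5%. Calls with a change of 1.5-fold or more made up 3.71% of all genes in the guide comparison, 1.55% in circPRE2 and 7.26% in circPRE8 against parental sgNORAD, 5.08% in circPRE8 against circPRE2, and 4.95% in circPRE2 and 4.37% in circPRE8 against the control guide. Leaving out 1 library moved several of these counts by more than 1.5 times. The 11 that fell with the guide became 6 without parental sgControl replicate 1 and 7 without parental sgControl replicate 2, parental sgNORAD replicate 2 or either circPRE8 replicate, and the 4 that rose became 7 without parental sgNORAD replicate 2. The 12 that rose in circPRE2 over parental sgNORAD became 6 without circPRE2 replicate 2. In circPRE8 against circPRE2 the 10 became 6 without circPRE8 replicate 1 and the 12 became 7 without circPRE2 replicate 2. Against the control guide, the 16 in circPRE2 became 10 and the 8 in circPRE8 became 5 without parental sgControl replicate 1, and the 4 that fell in circPRE2 became 2 without circPRE2 replicate 2. The median log2 fold change of the 39 was 0.00 in the guide comparison, 0.14 in circPRE2 and 0.13 in circPRE8, beside 0.02, 0.01 and -0.02 over all genes.

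Among ligands, BMP5 had an RPKM of 0.00592 and 0.00561 with the control guide, 0.541 and 0.502 in parental sgNORAD, 0.534 and 0.561 in circPRE2, and 0.175 and 0.0869 in circPRE8. Inferred reads were 1 and 1 with the control guide and 61 and 91 in parental sgNORAD. That is a ratio of 89.7 after scaling to library size, a description that rests on very few control reads. On the log2(RPKM + 0.1) scale, which compresses low levels, BMP5 in parental sgNORAD was 5.87-fold the control guide, and in circPRE8 0.365-fold parental sgNORAD, as descriptions. BMP6 in circPRE8 was 0.584-fold its level in circPRE2 (limma adjusted p = 0.00124).

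Of 7 receptor genes tested, ACVRL1, a type I receptor best known in endothelium, had 0.331 and 0.296 RPKM with the control guide, 0.140 and 0.187 in parental sgNORAD, 0.455 and 0.430 in circPRE2, and 0.600 and 0.705 in circPRE8. Both circPRE8 libraries were the highest and both parental sgNORAD libraries the lowest, and only circPRE8 reached the filter. On the log2(RPKM + 0.1) scale ACVRL1 was 2.07-fold in circPRE2 and 2.86-fold in circPRE8 relative to parental sgNORAD, and 0.634-fold in parental sgNORAD relative to the control guide, as descriptions. The type II receptor ACVR2B fell to 0.581-fold in circPRE8 against parental sgNORAD (limma adjusted p = 8.78e-06). The co-receptor ENG had 0.418 and 0.470 RPKM with the control guide and 0.670 and 0.799 in circPRE2, 1.53-fold the control guide as a description.

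All 8 intracellular inhibitors were tested. SMAD7, which like SMAD6 blocks receptor SMADs, had 0.537 and 0.616 RPKM with the control guide, 0.469 and 0.504 in parental sgNORAD, 0.919 and 1.09 in circPRE2, and 0.730 and 0.718 in circPRE8. It rose 1.88-fold in circPRE2 over parental sgNORAD (limma adjusted p = 0.000962). BAMBI, a receptor decoy, was highest in circPRE8, at 3.04 and 3.56 RPKM against 1.45 and 1.52 in parental sgNORAD, where it rose 2.14-fold (limma adjusted p = 3.03e-06). SKIL, a SMAD co-repressor, rose 1.64-fold with the guide (limma adjusted p = 2.55e-05) from 1.6 and 1.73 RPKM to 2.77 and 2.83, and fell to 0.757-fold in circPRE8 (limma adjusted p = 0.000685).

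Of 17 genes on the list of secreted antagonists, which also holds the protease BMP1, 6 were tested. With the guide 4 of them fell, FSTL1, FSTL3, TWSG1 and NBL1, to between 0.849-fold and 0.889-fold, while CHRD and BMP1 did not pass, beside 16.4% of all genes lower. In circPRE2 against parental sgNORAD 5 of the 6 rose, CHRD at 1.49-fold (limma adjusted p = 0.00110), FSTL1 at 1.28-fold, FSTL3 at 1.14-fold, BMP1 at 1.13-fold and TWSG1 at 1.12-fold, beside 10.9% of all genes higher. In circPRE8 against parental sgNORAD the 5 that rose were FSTL1, FSTL3, TWSG1, NBL1 and BMP1, beside 23.6% of all genes higher. The fall with the guide and both of these rises share the same 2 parental sgNORAD libraries. Against the control guide only 2 of the 6 rose in circPRE2 and 2 in circPRE8, with 4 not passing in each line. Of all genes 25.2% and 20% were higher in those comparisons. CHRD, TWSG1 and NBL1 bind BMPs, FSTL3 binds activins, and BMP1 is not an antagonist but a protease that cleaves CHRD. These 6 genes were named after their values were seen. FSTL1 with the guide was lost under 8 alternatives, and in circPRE2 FSTL3 and TWSG1 under 5 each and BMP1 under 3.

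Of 12 further response genes, 7 were tested. MSX2 had 9.69 and 10.0 RPKM with the control guide, 11.1 and 10.3 in parental sgNORAD, 12.3 and 12.7 in circPRE2, and 15.5 and 15.3 in circPRE8, and rose 1.56-fold in circPRE8 over the control guide (limma adjusted p = 1.74e-06). RUNX2 had 0.634 to 0.804 RPKM in the 4 parental libraries, 0.459 and 0.335 in circPRE2, and 0.230 and 0.211 in circPRE8, which is 0.563-fold and 0.365-fold parental sgNORAD in circPRE2 and circPRE8, as descriptions. GATA3 rose 1.58-fold with the guide (limma adjusted p = 0.00800) and fell to 0.599-fold in circPRE8 against parental sgNORAD (limma adjusted p = 0.00255). Of 13 basic helix-loop-helix factors, 3 were tested, and TWIST1 fell to 0.371-fold with the guide (limma adjusted p = 9.77e-07), from 3.38 and 3.56 RPKM to 1.34 and 1.12. It was at 1.41 and 1.30 RPKM in circPRE2 and 2.40 and 2.47 in circPRE8, where it rose 1.91-fold over parental sgNORAD (limma adjusted p = 7.72e-06). These pathway comparisons share control or parental sgNORAD libraries.

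**Figure D4:**
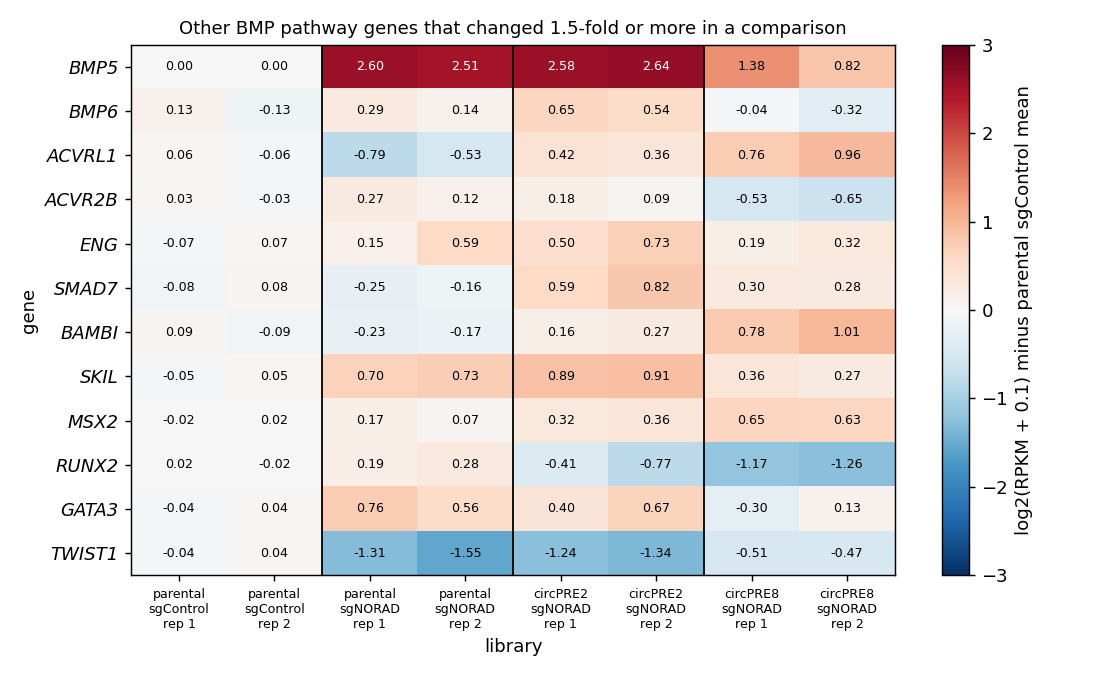
Log2(RPKM + 0.1) of 12 other BMP pathway genes picked by a limma call with a change of 1.5-fold or more in a comparison. Values are the difference from the mean of the 2 parental sgControl libraries, in each library. BMP5, ACVRL1, ENG and RUNX2 entered the filter through the groups where they were higher and are shown as descriptions only. BMP5 is the gene with the largest positive differences shown and TWIST1 that with the most negative in the parental sgNORAD libraries.

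Genes whose log2 levels over the 8 libraries were most like those of ID2, among 1638 genes with a group range of 1.5-fold or more, were KLHL24 (Pearson r 0.9994), CPNE1 (0.9946), NR2F1 (0.9934), MDGA1 (0.9932) and IGF2BP3 (0.9926). IGF2BP3 had 2.05 and 2.13 RPKM with the control guide, 11.1 and 10.6 in parental sgNORAD, 13.3 and 13.8 in circPRE2, and 5.40 and 4.84 in circPRE8. For BMP4 they were TNFSF18 (0.9936), ANXA3 (0.9929), ZBED2 (0.9906), HS3ST1 (0.9901) and TIPARP (0.9896), with ANXA3 at 56.3 and 57.7 RPKM with the control guide, 37.3 and 36.6 in parental sgNORAD, 32.6 and 34.1 in circPRE2, and 58.4 and 57.3 in circPRE8. These r values describe 8 libraries in 4 groups and carry no p.

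The 3' UTRs were searched for the PUMILIO motif TGTANATA, since PUMILIO proteins bind it, in the transcript with the longest 3' UTR in GENCODE 29. ID2 held 1 match, shown because ID2 was the member with the largest fold between groups among those tested, at position 442 of its 776-base 3' UTR, chr2:8684108-8684137 on the plus strand of GRCh38, with the motif in capitals.
ID2 site: actgaatgctgTGTATATAtttatatataa
No match was held by BMP4 (296 bases searched), ID1 (678), ID3 (523), SMAD1 (145) and SMAD6 (1313), and a short stretch offers few places for one. The RPKM steps of SMAD1 fitted a length of 7094 bases, against 6058 exon bases in GENCODE 29. Its 3' UTR may therefore not have been searched in full. BMP2 and BMPR2 held 1 each, ID4 3 and BMPR1A 4 in 9119 bases. Among 11538 tested genes with a 3' UTR, 29.1% held 1 or more, with a median 3' UTR of 1334 bases. A match is a description and not a measured site.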

How the data were processed

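The deposited table holds RPKM values (reads divided by gene length and by library size) for 8 libraries, made by the authors with STAR, featureCounts 1.6.0 and edgeR 3.24.0 on hg38, per the submitters' processing notes. The file is named for counts but its values are not whole, and 86.1% to 87.4% of low values were whole multiples of 1 read within a tolerance of 0.1, from which library sizes and reads were inferred. The annotation the authors used and whether counting used strand were named neither in the labels nor in the header. Of the gene IDs, 19361 of 19411 matched GENCODE 29.

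Values were tested as log2(RPKM + 0.1) with limma 3.58.1 in R 4.3.3, with 1 coefficient per group over all 8 libraries and a trend of variance on expression, for 11585 genes at 0.5 RPKM or more in at least 2 libraries, and Benjamini-Hochberg adjustment over all of them at 0.05. The fit has 4 residual degrees of freedom. A fold change on that scale understates the change of low genes. Of the 10 genes 8 passed the filter; BMP2 and ID4 did not. The members and pathway lists were chosen with earlier results of these data known. Named are all members, pathway genes that passed with a change of 1.5-fold or more, and the 5 genes most like ID2 and most like BMP4. Outside that rule, the 6 tested genes on the list of secreted antagonists are named after their values were seen. Alternatives were another pseudocount, filter, scaling, trend, fit of 2 groups, replicate block, and leaving out each library. The deposited design text describes small RNA libraries in triplicate, not these libraries, and was not used. Levels are compared only per length.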

Additional observations from a re-analysis of the deposited data

How the results depend on the processing

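Over 17 alternatives, no call of a member or of a pathway gene changed its sign. Values near 0 that had no call did so for SMAD6 in the guide comparison, BMPR1A in circPRE2 against the control guide and SMAD1 in circPRE8 against parental sgNORAD. Of 340 values of members in tested comparisons, 319 stayed on their side of the threshold, 16 lost and 5 gained a call, and of 476 described values 6 moved beyond the replicate spread. The count of members that rose in circPRE2 over parental sgNORAD was 4 and ran from 2 to 5 with a library left out. Leaving BMP4 and ID2 aside, the count that rose in circPRE8 over circPRE2 was 1, ran from 0 to 2 with a library left out, and was 2 with TMM factors, RLE factors (ID3 added) or no filter (ID4 added). With BMP4 and ID2 again left aside, the count that fell in circPRE2 against the control guide was 0 by limma, also at an unadjusted p under 0.05. It was 1 with no filter (ID4). Of 1900 values of 114 pathway calls, 154 lost the call. Replicate numbers did not pair the libraries (correlations of their deviations -0.173 to 0.211), and the replicate block gave 4 members higher and 1 lower in circPRE2 over parental sgNORAD and changed no member's call. Other scaling moved the share of calls that were higher, from 56.1% to 45.5% with TMM and 47.7% with RLE factors in the guide comparison, from 57.8% to 49.4% and 45.6% in circPRE2 against parental sgNORAD, from 45.2% to 52.2% and 51.0% in circPRE8 against parental sgNORAD, from 41.2% to 54.3% and 54.6% in circPRE8 against circPRE2, and from 58.6% to 44.5% and 44.3% in circPRE2 against the control guide. With 2 libraries a group, of 28.4 to 50.3 M reads, BMP2 and ID4 were too low to test.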
